A study of Mus musculus with 107 samples.

Results

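The eggs described here were 17 wildtype mouse eggs activated with strontium chloride, divided by a number of growths that the deposited egg table gives each egg. Of the 107 eggs sequenced, 9 activated eggs had growth number 2 and 8 had growth number 1, and the sources used here do not define the number. All 17 came from C57BL/6J females 2 to 3 months old that received 5 IU of pregnant mare serum gonadotropin 48 h before oocyte collection. Their oocytes were held in 2.5 µM milrinone, matured in culture, placed in 10 mM strontium chloride without calcium for 2 h from 15 to 16 h after germinal vesicle breakdown, and collected at 38 to 40 h. Each egg was sequenced alone by Smart-seq2, which copies polyadenylated transcripts along their length and does not mark strand. The activated eggs carried no mutation named in the labels and lay on 1 plate, so plate and treatment cannot be told apart when they are set against the 24 unactivated wildtype eggs of the same batch. The other eggs used here carried a homozygous Mos mutation and were named M1 (22 eggs), M2 (18) and M3 (21). In all 61 of them the growth number equalled the number in the name, and all 29 wildtype eggs that were not activated had growth number 1. The labels of the mutant and unactivated wildtype eggs give the same age, gonadotropin, milrinone and collection time, with no strontium.

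A mature mammalian egg waits in metaphase II, transcriptionally silent and filled with stored maternal mRNA. Fertilisation, or an activator such as strontium, raises intracellular calcium, which leads to cyclin B destruction and exit from meiosis. Stored mRNAs are then adenylated or destroyed, and the embryonic genome is switched on in a minor wave and then a major wave. In the mouse, DUX and OBOX homeodomain proteins and the ZSCAN4 family belong to the early part of that programme.

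No label ties eggs to females or cultures, so each growth number is treated as 1 sample and eggs are not used as replicates. Levels are counts scaled by each egg's total (CPM) of an egg, or of the summed counts of a group. Totals were 331846 to 1132319 counts per egg at growth number 2 (median 758379) and 179003 to 1019674 at growth number 1 (median 819604). The sums held 7371387 and 6141561 counts. After each egg was thinned to 179003 counts, 8017 to 9062 genes were detected per egg at growth number 2 (median 8602) and 7556 to 9149 at growth number 1 (median 8595). The 50 most abundant genes took 19.1 to 22.3% of counts per egg at growth number 2 and 19.96 to 22.4% at growth number 1, so the groups overlapped in depth, in genes detected and in concentration of counts.

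Transcripts of the early zygotic programme varied widely among the activated eggs, and 3 of their promoters are shown because each gene is described below by egg. The sequences are from RefSeq (GRCm38.p6) and run 5′ to 3′ on the gene's strand, from 250 bases before the annotated start to 50 bases after it. The windows lie at chr4:90218570-90218869 on the plus strand for Zfp352, chr7:11166099-11166398 on the minus strand for Zscan4d and chr7:104856766-104857065 on the plus strand for Usp17la. Capitals mark matches, searched on both strands, to TATAAA, recognised by the TATA-binding protein, or to GGATTA, recognised by OTX and OBOX type homeodomains.
Zfp352: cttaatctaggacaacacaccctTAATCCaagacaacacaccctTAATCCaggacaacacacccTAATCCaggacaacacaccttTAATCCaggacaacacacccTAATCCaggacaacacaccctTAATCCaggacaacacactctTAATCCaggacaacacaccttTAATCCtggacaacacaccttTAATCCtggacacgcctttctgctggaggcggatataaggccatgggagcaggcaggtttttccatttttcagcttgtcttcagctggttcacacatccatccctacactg
Zscan4d: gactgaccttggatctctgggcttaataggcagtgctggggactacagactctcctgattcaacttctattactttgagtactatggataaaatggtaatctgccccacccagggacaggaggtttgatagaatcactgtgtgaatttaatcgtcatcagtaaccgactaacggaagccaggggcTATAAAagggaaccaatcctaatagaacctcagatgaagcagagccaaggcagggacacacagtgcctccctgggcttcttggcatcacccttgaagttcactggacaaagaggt
Usp17la: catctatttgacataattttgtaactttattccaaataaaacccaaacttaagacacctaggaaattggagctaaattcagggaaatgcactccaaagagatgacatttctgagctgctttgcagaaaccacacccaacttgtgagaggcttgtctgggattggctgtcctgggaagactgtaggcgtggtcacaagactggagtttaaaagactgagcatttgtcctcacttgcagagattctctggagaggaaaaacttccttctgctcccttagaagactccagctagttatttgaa
The Zfp352 window held 9 copies of GGATTA, each read as its complement, between 227 and 61 bases before the start. The Zscan4d window held 1 TATAAA, at 65 bases before the start, and the Usp17la window held neither motif. Among all 32851 promoter windows of this length, 7.06% held GGATTA and 13.6% held TATAAA. Of the 38 zygotic transcripts listed here, 24 had a window, of which 6 held GGATTA and 8 held TATAAA. The matches do not overlap each other, and a match is a description of the letters only.

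The library names give each egg a well, with a row letter and a column number, and the eggs of a column were far more alike than any others. In 7 columns there were 2 eggs, and each of these 14 eggs had the other egg of its column as its nearest egg. Over 6155 genes, with eggs thinned to equal depth, Pearson's r of log2 CPM across genes was 0.795 to 0.880 for the 7 pairs within a column (median 0.867) and 0.630 to 0.815 for the 129 pairs from different columns (median 0.728). The ranges overlapped only through the pair in column 1, at 0.795, whose row A egg was the shallowest. Growth number had no such pattern, since pairs from different columns had a median r of 0.725 where the numbers differed (68 pairs) and 0.730 where they were the same (61 pairs). Genes are not independent replicates, and these values describe the eggs with no test.

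**Figure D1:**
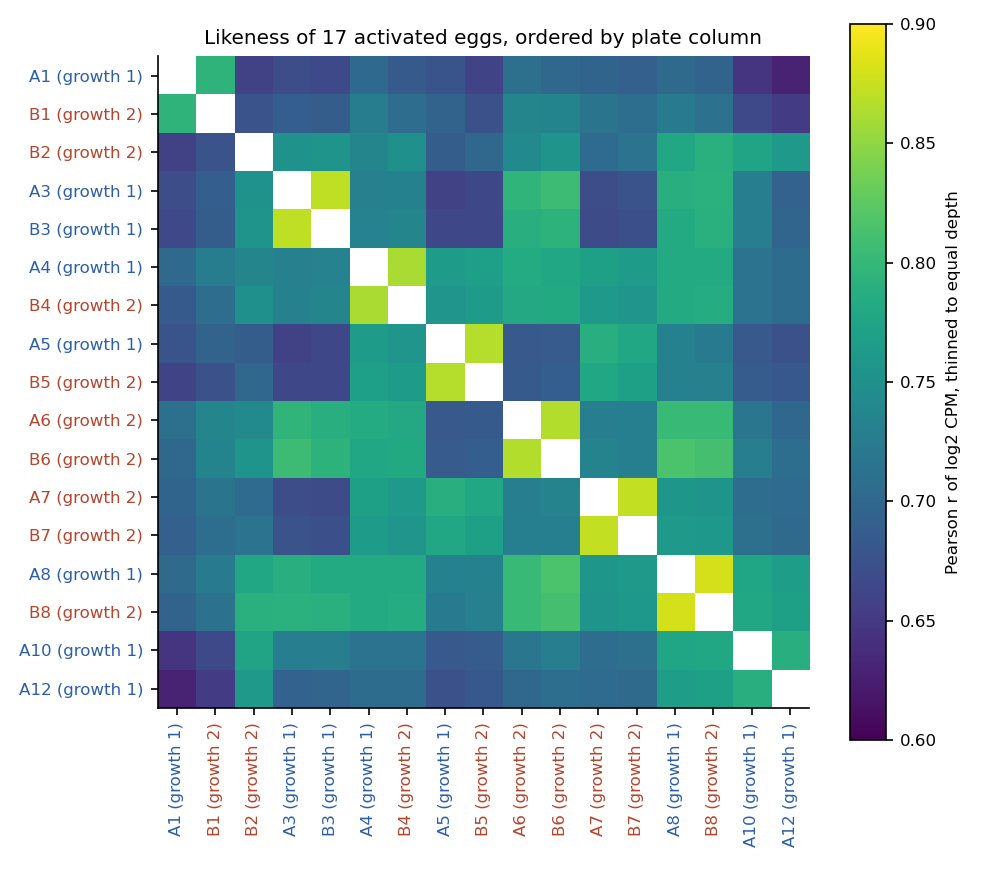
Pearson's r across 6155 genes between each pair of the 17 activated eggs, thinned to equal depth, with eggs in plate order and their wells and growth numbers on both axes. The brightest blocks beside the white diagonal are the 7 pairs that share a column, whether their growth numbers differ (columns 1, 4, 5 and 8) or are the same (columns 3, 6 and 7).

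The eggs of a column differed by more than sampling noise, as the variance of their counts was 2.91 to 3.41 times the binomial value, against 8.31 to 31.5 times for eggs of different columns. Of the variance in log2 CPM over the 17 eggs, 5.74% lay between the growth numbers, which take 6.25% of the degrees of freedom. Among the 14 paired eggs, 77.7% lay between columns, which take 46.2%. On the other plates of the batch, thinned to 100000 counts per egg, the median r within and between columns was 0.659 and 0.618 on the first plate, 0.750 and 0.680 on the second, and 0.667 and 0.688 on the third. On the plate of the activated eggs it was 0.825 and 0.696. The labels do not say what eggs of a column share, and the cause of their likeness was not tested.

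Wells and growth numbers were also linked. Row B held 7 eggs of growth number 2 and 1 of growth number 1, and row A held 2 of growth number 2 and 7 of growth number 1. In columns 1, 4, 5 and 8 both numbers were present, always with growth number 2 in row B and growth number 1 in row A. Both eggs of columns 6 and 7 and the single egg of column 2 had growth number 2. Both eggs of column 3 and the single eggs of columns 10 and 12 had growth number 1. The counts of genes, the pathway lists and most named genes below are therefore given also over the 8 eggs of the 4 columns that held both numbers, and over the 9 eggs of the other 6 columns, where number and column cannot be told apart.

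The zygotic and 2-cell transcripts, a list of 38 genes known for their transcription in the early embryo, differed widely among activated eggs, by column and not by growth number. Their summed level ran from 620 to 3816 CPM at growth number 2 (median 1229) and from 674 to 3817 CPM at growth number 1 (median 1140), against 320 to 869 CPM in the 24 unactivated wildtype eggs (median 540). Within columns the 2 numbers gave nearly the same level. In column 5 the sum was 3816 CPM at growth number 2 and 3817 CPM at growth number 1. In column 4 it was 1745 CPM at growth number 2 and 1779 CPM at growth number 1. In column 1 it was 1229 CPM and 1324 CPM, and in column 8 it was 970 CPM and 995 CPM, with growth number 2 first. Columns 7 and 6, both with 2 eggs of growth number 2, lay at 1883 and 1797 CPM and at 767 and 620 CPM. Column 3, with 2 eggs of growth number 1, lay at 717 and 674 CPM. By this sum the eggs of columns 2, 3 and 6 were inside the range of unactivated eggs, and those of the other 7 columns were above it. The sum includes members that unactivated eggs also had, such as Pramel13, so it does not show that single members were alike.

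**Figure D2:**
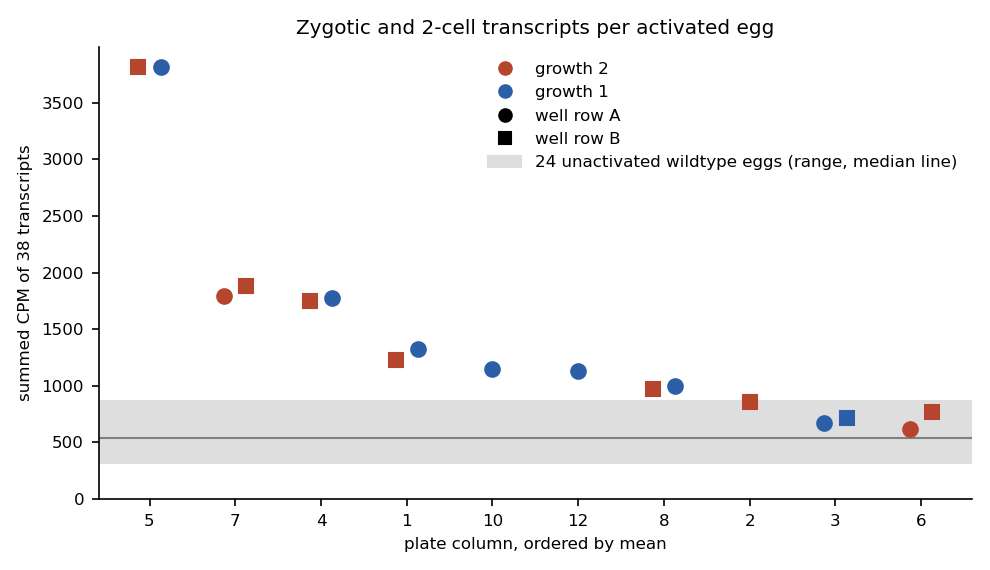
Summed CPM of the 38 zygotic and 2-cell transcripts in each activated egg, by plate column, with growth number as colour and well row as shape. The grey band is the range over 24 unactivated wildtype eggs (320 to 869 CPM) and the line their median (540 CPM); the eggs of column 5 are the highest, at 3816 CPM for growth number 2 and 3817 CPM for growth number 1.

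Zfp352, a zinc finger gene of the 2-cell embryo whose promoter is shown above, had 357 CPM at growth number 2 and 460 CPM at growth number 1 in column 5. It had 155 and 159 CPM in column 4 and 10.6 and 11.8 CPM in column 8, in the same order of growth numbers. The 2 eggs of growth number 2 in column 7 had 194 and 162 CPM, and those in column 6 had 16.2 and 1.24 CPM. Over all eggs its summed level was 112 CPM at growth number 2 and 101.1 CPM at growth number 1. It was at 0 counts in the unactivated wildtype eggs.

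Zscan4d, of a family that binds telomeres and heterochromatin in 2-cell embryos, followed the same columns. It had 302 CPM at growth number 2 and 253 CPM at growth number 1 in column 5, then 169 and 188 CPM in column 4, 211 and 145.2 CPM in column 1, and 7.95 and 3.92 CPM in column 8. Its near copy Zscan4c had 174 and 150 CPM in column 5 and was at 0 counts in both eggs of columns 8 and 6. For those 4 eggs, 3 counts would be 2.65 to 4.04 CPM, so lower levels cannot be seen. Usp17la, a deubiquitinase of a multicopy family, had 374 CPM at growth number 2 and 368 CPM at growth number 1 in column 5, against 105 and 53.02 CPM in column 4. Reads shared by near-identical copies may have been split or lost in the Zscan4, Usp17l, Duxf, Eif1ad and Alyreffm families, so their levels are uncertain.

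Duxf3, the annotated copy of Dux in this table, varied less between columns than Zfp352 or Zscan4c. It was present in all 9 eggs of growth number 2, at 19.4 to 80.8 CPM (median 47.2), and in all 8 of growth number 1, at 11.2 to 56.6 CPM (median 35.2), against 1 count in the unactivated wildtype eggs together. The log2 range of its column means was 2.06, against 8.44 for Zscan4c and 6.93 for Zfp352. In column 6, whose eggs of growth number 2 had almost no Zfp352, Duxf3 was at 47.2 and 34.7 CPM. Of the 38 transcripts, 23 were at 0 counts in all unactivated wildtype eggs together, and the others had counts there. Pramel13, the most abundant member, had 194 CPM in the sum of growth number 2 and 219 CPM in that of growth number 1, against 243 CPM in the summed unactivated wildtype eggs, and its log2 range between column means was 1.66. Over the 23 that reached 16 CPM in a growth sum, the median log2 range between column means was 5.85, against 2.20 over all 6460 such genes.

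All genes at that level, without predicted genes and pseudogenes, were then ranked by the same range between column means, a choice made after the values were seen. Usp17la and Zscan4c of the zygotic list were among the widest. So were Alyreffm2 and Alyreffm3, of the same family as the list's Alyreffm1. Outside the list, besides Clu, described below, the widest included Tmem132c, a transmembrane protein gene, and Ficd, which AMPylates the endoplasmic reticulum chaperone BiP. They also included Slc16a6, a monocarboxylate transporter family member, and Eif4a3l1, a copy of an exon junction factor. Ficd had 386 CPM at growth number 2 and 296 CPM at growth number 1 in column 5, 163 and 140 CPM in column 1, 120 and 98.5 CPM in column 4, and 8.83 and 8.83 CPM in column 8. It was at 0 counts in both eggs of column 3 and had 10.7 CPM in the summed unactivated wildtype eggs. Tmem132c had 369 CPM at growth number 2 and 370 CPM at growth number 1 in column 5 and 1.77 and 2.94 CPM in column 8. Both genes were highest in column 5, where the zygotic list was highest. Lrrc58, which encodes a leucine-rich repeat protein, had another pattern, with 199 and 179 CPM in the eggs of growth number 2 in column 6, 152 and 136 CPM in the eggs of growth number 1 in column 3, and 0 counts in column 12.

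The growth numbers were then compared over all 17 eggs, and no gene was called. In a model of 11 sums, with the activated eggs as 1 sum for each growth number and the mutant eggs as 1 sum for each group and plate, edgeR's quasi-likelihood test called 0 of 13448 genes between growth number 2 and growth number 1 at an adjusted p under 0.05 (0.0%). At an unadjusted p under 0.05 it gave 158 genes (1.17%), a count that ran from 65 to 385 when a plate of mutant sums was left out. DESeq2 and limma voom also called 0 genes. The mutant sums came from batch 1 and batch 2, and the activated sums from batch 2 only. The activated sums have no replicate of their own and were assumed to vary like the mutant sums, on 4 residual degrees of freedom, so this count limits what could be called.

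By size, 191 of the 6460 genes of at least 16 CPM in a growth sum lay past 2-fold (2.96%), with 54 higher at growth number 2 (0.836%) and 137 lower (2.12%). By the mean of log2 CPM over eggs there were 289 (4.47%), 147 higher (2.28%) and the rest lower (2.2%). The count depended on which eggs were compared. In the 4 columns with both numbers, 1.87% of genes lay past 2-fold, 62 higher (0.96%) and 59 lower (0.913%). In the other 6 columns there were 877 (13.6%), 362 higher (5.6%) and 515 lower (7.97%). Between row B and row A of the 3 columns whose eggs had the same number, where growth number does not differ, there were 105 (1.63%), 55 higher in row B (0.851%) and 50 lower (0.774%).

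**Figure D3:**
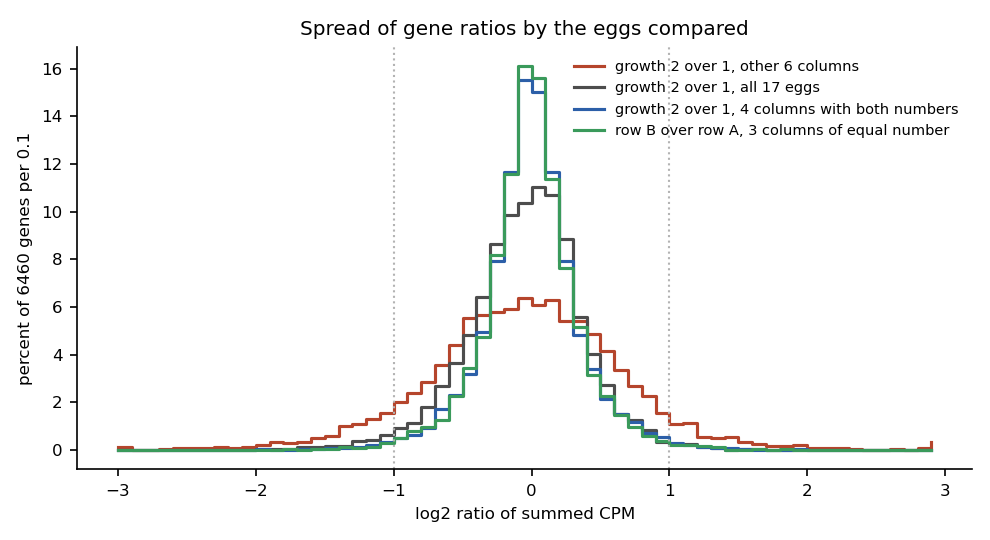
Percent of 6460 genes in each 0.1 step of the log2 ratio of summed CPM, with values past 3 drawn at the ends and dotted lines at 2-fold. The ratios of growth number 2 over 1 within 4 columns (SD 0.36) are about as narrow as those of row B over row A in columns of equal number (SD 0.35), and those over the other 6 columns are wider (SD 0.74).

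The SD of the log2 ratio across genes was 0.43 over all 17 eggs. The ratios in the 4 columns with both numbers and those in the other 6 columns share no egg, and across the 6460 genes Pearson's r between them was -0.03 and Spearman's rho -0.04. Within the 4 columns the ratios of single columns had r of -0.01 to 0.12 with each other over 2096 genes of at least 100 CPM. These correlations are across genes, which are not independent replicates.

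The rule for named genes took the 12 highest and 12 lowest ratios that stayed past 1.5-fold when each egg was left out. The level of 16 CPM was not applied again to the eggs that remained. The 8 eggs of the 4 columns with both numbers were among the 17 that the rule used. A ratio over those columns is therefore not independent of the choice of genes. Intervals given for ratios are exact 95% intervals of the ratio of summed counts and cover counting error only. All 24 genes had an edgeR adjusted p of 1.0 between the growth numbers.

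Hip1, which encodes a clathrin adaptor of endocytosis, had a higher level at growth number 2 than at growth number 1 in columns 1, 4 and 5. In column 8 it had counts only at growth number 2. Per egg it had 0 to 40.4 CPM at growth number 2 (median 24.1) and 0 to 11.4 CPM at growth number 1 (median 1.88), and the groups overlapped. In column 1 it had 24.1 CPM at growth number 2 and 0 counts at growth number 1, in column 4 24.9 and 11.4 CPM, in column 5 15.8 and 6.80 CPM, and in column 8 2.65 CPM and 0 counts. The eggs at 0 counts cannot be told from levels under 16.8 CPM in column 1 and 2.94 CPM in column 8, so the order in column 8 is uncertain. Its sums were 19.4 CPM at growth number 2 and 3.58 CPM at growth number 1, a ratio of 5.42 (3.44 to 8.91). Over the 4 columns alone the log2 ratio was 1.38, and over the others 3.34. Row B over row A in the columns whose eggs had the same number gave a log2 ratio of 0.91. In the 4 columns growth number and row cannot be told apart. The summed unactivated wildtype eggs, all of growth number 1, had 23.2 CPM.

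Clu, which encodes the secreted chaperone clusterin, headed the list through 1 egg. It had 188 CPM in the egg of column 2, at growth number 2, with 3.76 and 0.893 CPM in column 7, and 0 counts in the other 6 eggs of growth number 2 and in all 8 of growth number 1. Its summed level of 18.3 CPM was at least 37.5-fold higher than 3 counts in the sum of growth number 1. Without the egg of column 2, its only counts were those of column 7, under the level of 16 CPM. Gli3, a transcription factor of Hedgehog signalling, had 0 to 125.5 CPM per egg at growth number 2 (median 79.4) and 0 to 54.4 CPM at growth number 1 (median 16.4). Its sums were 74.9 and 24.3 CPM, a ratio of 3.09 (2.57 to 3.72), and its log2 ratio was 0.59 in the 4 columns with both numbers and 2.22 in the others. Trp53i13, a p53-inducible gene, had sums of 31.6 CPM at growth number 2 and 9.77 CPM at growth number 1, and log2 ratios of 0.21 in the 4 columns and 3.28 in the others.

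The other genes with high ratios had values of 2.48 to 3.04. They included Coq8b, needed for coenzyme Q synthesis, Zyx, a focal adhesion protein gene, Med11, a Mediator subunit gene, and Cdh20, a cadherin gene. Coq8b had 25.8 CPM at growth number 2 and 8.47 CPM at growth number 1, and Med11 had 23.9 and 9.44 CPM, with log2 ratios of 0.22 in the 4 columns and 1.86 in the others. In the 4 columns with both numbers the log2 ratios of Coq8b, Gmcl1, Cdh20 and Kyat3 were -0.0036, -0.13, -0.16 and -0.44, so they were at or below 0 there. Eif1ad13, a 2-cell copy of a translation initiation factor gene, had 98.9 CPM at growth number 2 and 38.5 CPM at growth number 1 in column 5, and its ratio over all eggs was 2.49 (1.85 to 3.39).

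Among the lowest ratios was Dppa5a, an RNA-binding protein gene of pluripotent cells. It had 2.48 to 68.6 CPM per egg at growth number 2 (median 9.40) and 0 to 83.0 CPM at growth number 1 (median 65.4). The sums were 15.1 CPM at growth number 2 and 58.0 CPM at growth number 1, a ratio of 0.260 (0.208 to 0.322). In column 5 both eggs were high, at 68.6 CPM for growth number 2 and 71.4 CPM for growth number 1. The log2 ratio was -0.54 in the 4 columns with both numbers and -3.31 in the others. Fbxw25, of an oocyte F-box family whose copies may share reads, had 5.97 CPM at growth number 2 and 23.3 CPM at growth number 1, a ratio of 0.256 (0.179 to 0.362), with log2 ratios of -0.99 in the 4 columns and -2.63 in the others.

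Prps1l3, related to genes of phosphoribosyl pyrophosphate synthesis, and Zfp248, a zinc finger gene, also had low ratios over the 4 columns. The eggs of those columns were among the eggs used to choose the genes, and growth number and row cannot be told apart there. Prps1l3 had sums of 7.60 CPM at growth number 2 and 26.1 CPM at growth number 1, with log2 ratios of -1.78 in the 4 columns and -1.64 in the others. By column its level was 0 counts and 33.5 CPM in column 1, 27.6 and 32.8 CPM in column 4, 3.96 and 18.1 CPM in column 5, and 4.42 and 46.1 CPM in column 8, with growth number 2 first. Zfp248 had 4.61 and 16.4 CPM, with log2 ratios of -1.62 and -1.96, and was slightly higher at growth number 2 in column 4. The respiratory chain genes Uqcr11 and Ndufa1, the telomere protein gene Terf1, the nucleolar protein gene Lyar, and Grn, which encodes progranulin, had ratios of 0.283 to 0.316. Of these, Grn had a log2 ratio of 0.34 in the 4 columns and -3.53 in the others, and Uqcr11 -0.42 and -5.27.

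**Figure D4:**
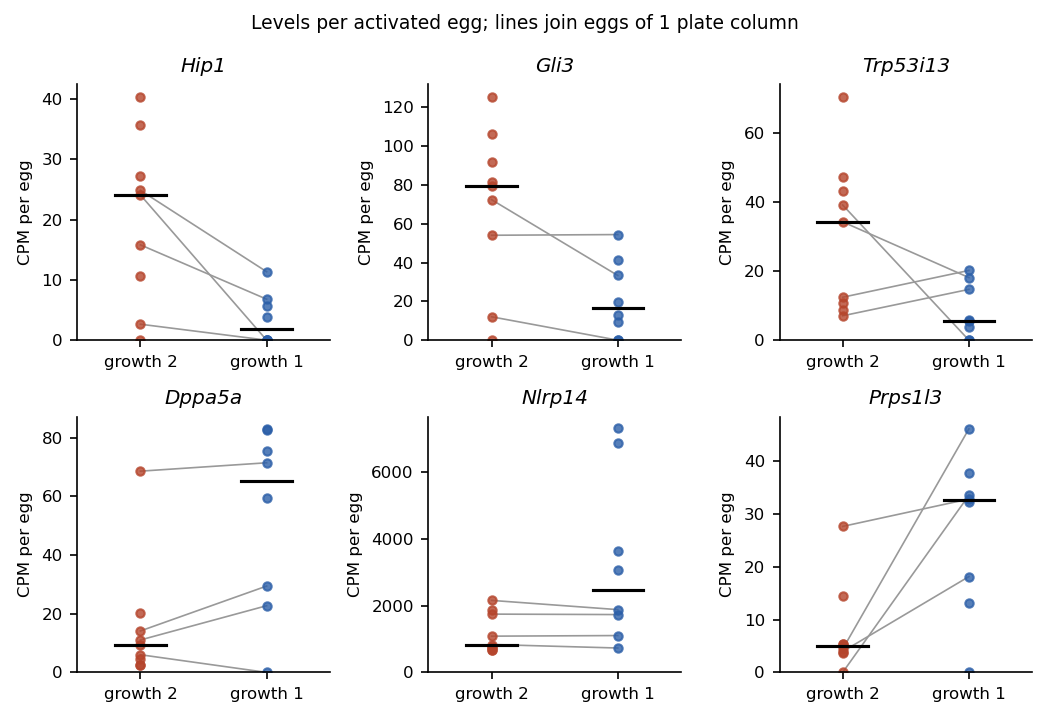
CPM per egg of 6 genes, with growth number 2 on the left and growth number 1 on the right, black bars at the median and grey lines joining the 2 eggs of each column that held both numbers. The lines fall to the right in all 4 columns for Hip1, in column 8 only from 2.65 CPM to 0 counts. They are nearly flat for Nlrp14, whose 4 highest eggs are in columns 3, 10 and 12.

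Pathway lists were described by their counts past 2-fold and their medians. They were chosen with earlier results of these data known. In none of the 31 lists was a member called, and none had a member of at least 16 CPM past 2-fold higher over all 17 eggs, against 0.836% of all genes. Of the zygotic list, 10 of 23 such members were past 2-fold higher in the other 6 columns, where number and column cannot be told apart, against 5.6% of all genes, and 0 of 23 in the 4 columns with both numbers. By mean log2 CPM 1 of the 23 was. The median log2 ratio over all 6460 genes was -0.02.

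Maternal effect genes, whose stored products carry the embryo through its first divisions, had 4 of 37 measured members past 2-fold lower, against 2.12% of all genes. The list's median log2 ratio was -0.26 over all eggs and -0.01 in the 4 columns with both numbers. Those 4 were Nlrp14, Nlrp5, Tle6 and Khdc3, of which the last 3 encode parts of the subcortical maternal complex. Nlrp14, needed for early embryo development, had 1159 CPM at growth number 2 and 3400 CPM at growth number 1, a ratio of 0.341 (0.332 to 0.350). Its level followed columns: 6880 and 7339 CPM in column 3, 3636 CPM in column 10 and 3074 CPM in column 12, all at growth number 1, and 755 and 678 CPM in column 6 at growth number 2. Where a column held both numbers, Nlrp14 had 1088 CPM at growth number 2 and 1106 CPM at growth number 1 in column 1, 837 and 732 CPM in column 4, 2161 and 1884 CPM in column 5, and 1749.5 and 1736 CPM in column 8. Nlrp5, also called Mater, had 675 and 1382 CPM over all eggs, with log2 ratios of -0.10 in the 4 columns and -1.59 in the others. Zbed3, the most abundant member, had 64425 CPM at growth number 2 and 50258 CPM at growth number 1, with log2 ratios of -0.06 in the 4 columns and 0.83 in the others.

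Over all genes 2.12% lay past 2-fold lower, the share to set beside each count of lower members given next. Nuclear genes of the respiratory chain had a median log2 ratio of -0.52, with 3 of 28 members past 2-fold lower, and a median of -0.09 in the 4 columns. Their summed level was lowest in column 7, at 1782 and 1768 CPM in 2 eggs of growth number 2, and 2525 to 3610 CPM in the 15 other eggs. Proteasome genes had a median of -0.36 with 3 of 27 lower, among them Psma5 and Psma2, and a median of -0.08 in the 4 columns. Nucleolar and rRNA processing genes had a median of -0.41 with 3 of 28 lower, and 0.00 in the 4 columns. Among spindle genes, 2 of 37 were lower, Tacc3 and Kif2c, and among replication genes 2 of 34, Mcm4 and Rfc3. These counts of 2 or 3 members per list were not tested. Mcm4, a subunit of the replicative helicase, had 84.9 CPM at growth number 2 and 193 CPM at growth number 1, with log2 ratios of 0.06 in the 4 columns and -1.79 in the others.

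**Figure D5:**
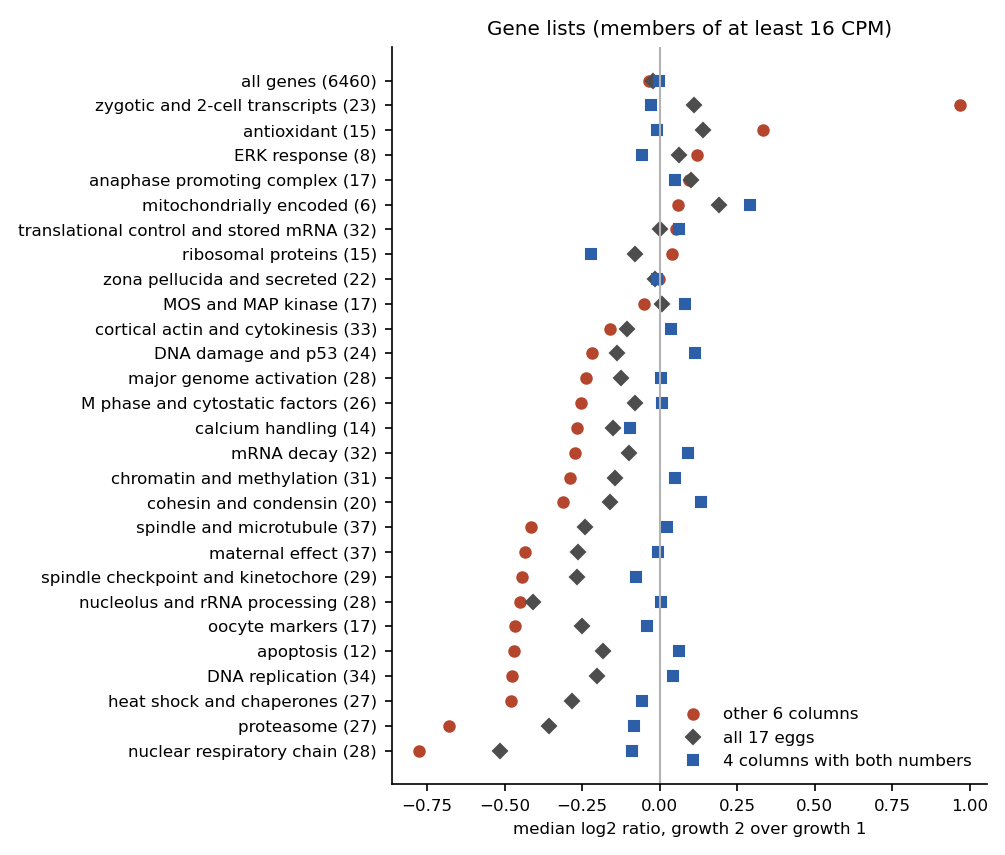
Median log2 ratio of growth number 2 over growth number 1 for all genes and for lists with at least 6 members of 16 CPM or more (number in brackets), over all 17 eggs, the 4 columns with both numbers and the other 6 columns. In the 4 columns the medians lie between -0.22 and 0.29, and in the other 6 columns between -0.78 and 0.97.

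Regulators of meiotic exit had no member of at least 16 CPM past 2-fold over all eggs. The lists of MOS and MAP kinase genes, M phase and cytostatic factors, and anaphase promoting complex genes had 17, 26 and 17 members of at least 16 CPM, of which 0 lay past 2-fold, against 2.96% of all genes. At that share lists of this size hold few such members. Their median log2 ratios were 0.01, -0.08 and 0.10, and 0.08, 0.01 and 0.05 in the 4 columns with both numbers. In the other 6 columns 6 of the 60 genes lay past 2-fold, against 13.6% of all genes. Among them were Cdc20 and Cdc23, which encode an activator and a subunit of the anaphase promoting complex, with log2 ratios of -1.06 and -1.11 there, and Ube2c, which encodes a ubiquitin-conjugating enzyme of that complex, with 1.18. In the 4 columns their log2 ratios were 0.20, 0.08 and 0.19. Wee2, the oocyte kinase that inhibits CDK1 at meiotic exit, had 1277 and 1207 CPM, a ratio of 1.06. Pttg1, which encodes securin, had 1256 and 1709.5 CPM, a ratio of 0.735. Mos itself had 46 counts at growth number 2 and 26 counts at growth number 1 in the sums, or 6.24 and 4.23 CPM, against 31.6 CPM in the summed unactivated wildtype eggs. The log2 ratio of Mos was 2.29 in the 4 columns and -0.11 in the others, both from few counts. Btg4, an adaptor for mRNA deadenylation, had 2308 and 2328 CPM, a ratio of 0.991 (0.969 to 1.01), and Klf17, a Krüppel-like factor gene, had 1535 and 1245 CPM.

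Mitochondrially encoded transcripts also followed columns. Of the 13 genes, 6 reached 16 CPM in a growth sum. mt-Nd3, mt-Co2, mt-Atp6 and mt-Atp8 had 0 counts in both sums. mt-Co3 and mt-Nd4l had 6 and 4 counts at growth number 2 and 0 at growth number 1. The shares below are of the deposited counts and hold almost nothing from those genes, for a reason that was not tested. Their share of counts was 0.0163% at growth number 2 and 0.0201% at growth number 1 in column 1, and it was higher at growth number 2 in the other columns with both numbers. There it was 0.348% at growth number 2 and 0.234% at growth number 1 in column 4, 0.408 and 0.276% in column 5, and 0.336 and 0.288% in column 8. With row B first, it was 0.0885 and 0.0613% in column 6, with growth number 2, and 0.0920 and 0.0703% in column 3, with growth number 1. In column 7, with growth number 2, the summed level was 3121 CPM in row B and 2858 CPM in row A. Row B was thus also the higher row where the numbers were the same. In the 4 columns with both numbers, growth number and row cannot be told apart. In the 11 eggs outside columns 1, 3 and 6 the share was 0.228 to 0.408%. The medians were 0.286% at growth number 2 and 0.251% at growth number 1, and 0.168% in unactivated wildtype eggs, whose range was 0.0132 to 0.602%. mt-Co1, a cytochrome oxidase subunit gene, had 2242 CPM at growth number 2 and 1398 CPM at growth number 1 in column 5, and 30.1 and 89.4 CPM in column 1. mt-Nd1, a subunit gene of respiratory complex I, had 190 CPM at growth number 2 and 130 CPM at growth number 1 in the sums, and its log2 ratio was 1.01 in the 4 columns with both numbers and 0.14 in the others.

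The eggs carried the marks of oocytes. The 18 oocyte markers summed to 5764 to 8030 CPM per egg at growth number 2 (median 6946) and to 6223 to 11015 CPM at growth number 1 (median 8068), with the highest values in columns 10 and 12. The 25 granulosa and cumulus markers summed to 123.2 to 209 CPM at growth number 2 (median 137) and 99.7 to 206 CPM at growth number 1 (median 177). Only 3 of the 25 reached 16 CPM, with Serpine2 at 69.1 CPM for growth number 2 and 71.8 CPM for growth number 1. Blood markers summed to at most 57.2 and 42.7 CPM per egg, and sperm markers to at most 11.1 and 8.44 CPM, with growth number 2 first. The groups overlapped in each list, and the part of these cells in the results was not tested.

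The mutant groups offered the same contrast of numbers, M2 over M1, within the first and second plates and within batch 1, whose library names give no plate. edgeR's quasi-likelihood test called 0 of 13448 genes between M2 and M1 (0.0%), with 763 at an unadjusted p under 0.05 (5.67%), and DESeq2 called 105. For the difference between the activated and the mutant contrast it called 0 genes (0.0%), with 207 at an unadjusted p under 0.05 (1.54%), and DESeq2 called 8. Across the 6460 genes, Pearson's r between the 2 fitted log2 ratios was 0.06 and Spearman's rho 0.13. The SE given next is the size of the log2 ratio over the square root of the test's F statistic. It holds no spread among activated eggs. For Hip1 the fitted log2 ratio was 2.45 ± 0.81 (SE) in activated eggs and 0.59 ± 0.44 in mutant eggs, with an edgeR adjusted p of 1.0 for the difference. For Nlrp14 it was -1.53 ± 0.77 in activated and -0.20 ± 0.43 in mutant eggs, again with an adjusted p of 1.0 for the difference.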

How the data were processed

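The values used were counts per gene, whole numbers with no normalisation as deposited by the authors, covering 21564 gene symbols and 107 eggs. STAR, HTSeq and GRCm38 (mm10) are named in the submitters' processing notes. The tool versions, the annotation and the use of strand are not given in the sources used, so overlapping, antisense and multicopy genes are uncertain. Growth numbers came from the deposited egg table, and plates and wells from the library names.

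Counts were summed over the eggs of each growth number, and mutant counts over group and plate, giving 11 sums. The mutant eggs of batch 1, whose library names give no plate, were taken as 1 plate. Their sums held 16138121 to 26211374 counts from 2 to 4 eggs. The mutant sums of batch 2, the batch of the activated eggs, held 2473478 to 7843054 counts from 5 to 13 eggs. edgeR 4.0.16 (R 4.3.3) fitted group with plate as a block, with TMM scaling, its expression filter at a minimum count of 10 and quasi-likelihood tests, adjusted by Benjamini-Hochberg over 13448 genes at a threshold of 0.05. Its p-values measure the spread between mutant sums, which may be technical. Plates of the mutant groups may share animals. The test was also run on simulated counts. These had the same spread parameter for every gene and no differences between plates, unlike the data. That run therefore does not show which changes the test could call here. Ratios are of raw summed CPM, and log2 ratios add 0.5 to each count. Genes with at least 16 CPM in a growth sum were compared by size, at 2-fold. The named genes are the 12 highest and 12 lowest ratios that stayed past 1.5-fold without each egg in turn and by mean log2 CPM, without predicted genes and pseudogenes, then each list's highest, lowest and most abundant members, of which some are given, and Mos. Leaving out an egg keeps the other egg of its column. Members, lists and rules were chosen with earlier results of these data known. Of 1088 list entries, 1075 were found, some through current symbols looked up after the files were read. Comparisons by column, and the ranking of genes by column range, were added after the data were seen. Alternatives were DESeq2 1.42.0, limma 3.58.1 voom, RLE scaling, no expression filter, thinned eggs, mean log2 CPM, no mitochondrial genes, no plate block, other plates, single well rows, and each egg, plate and the M3 sums left out. Thinning for similarity used 179003 counts per egg, and for fits 100000. Figures were drawn with matplotlib.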

Additional observations from a re-analysis of the deposited data

Results flagged for a closer look

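In 66 groups of eggs, each 1 quantity at 1 growth number, an egg at either end was compared with its group by its gap to the nearest egg over the whole range, and 19 values stood out. Chance flags about 1 in 20 groups of normally distributed values, and that rate was not tested for these quantities. At growth number 2, the egg of column 2 had the lowest share of counts in the 50 most abundant genes, 19.1% against a median of 21.4% in the others, and 188 CPM of Clu. The row B egg of column 5 had 3816 CPM of zygotic transcripts against a median of 1100 CPM in the others, 98.9 CPM of Eif1ad13, 68.6 CPM of Dppa5a and 62.0 CPM of Uqcr11. The row B egg of column 7 had 68.6 CPM of Coq8b, and the row A egg of column 6 had 32.3 CPM of Carmil2, a regulator of actin capping.

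At growth number 1, the row A egg of column 5 had 3817 CPM of zygotic transcripts against a median of 1127 CPM in the others, 38.5 CPM of Eif1ad13 and 21.5 CPM of Kyat3. So for zygotic transcripts and Eif1ad13 the egg that stood out was from column 5 at each growth number. The row A egg of column 1 had the lowest total, 179003 counts, with 67.04 CPM of Cdh20 and 0 counts of Ndufa1. Column 12 had 17.8 CPM of Zyx and 45.1 CPM of Zfp248, column 10 had 78.4 CPM of Grn, the row A egg of column 3 had 28.1 CPM of Med11, and the row A egg of column 4 had the lowest sum of granulosa markers, 99.7 CPM.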

How the results depend on the processing

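Over 17 fits that each left out 1 egg, 0 genes were called between growth numbers and 0 for the difference from the mutant contrast, and 2.32 to 4.71% of genes lay past 2-fold, against 2.96% with all eggs. The 4.71% came without the row A egg of column 5 (growth number 1). With no filter on low counts, 1 gene was called between growth numbers, Nlrp14, and 1 for the difference, Clu, and 30.5% of genes lay past 2-fold. DESeq2 called 8 for the difference. Within row B, which had 1 egg of growth number 1, 21 genes were called between growth numbers, 2 for the difference, and 22.5% lay past 2-fold. Within row A, 10.4% did. Thinned eggs gave 6.02% and mean log2 CPM 4.47%. The 4 columns with both numbers gave 1.87%, the other columns 13.6%, and row B over row A in columns of equal number 1.63%; these comparisons were chosen after seeing the data, and the cause of the differences was not tested. Genes at an unadjusted p under 0.05 between growth numbers, 158 with all eggs, were 65 to 385 with 1 mutant plate left out, 128 to 245 with 1 egg left out, 81 with no plate block, 95 without M3, 89 with the plates of the deposited egg table, 27 by mean log2 CPM, 713 within row A, 1485 within row B and 987 in the other 6 columns. Other alternatives for the called counts and the shares past 2-fold stayed within 1.5 times, and TMM scaling shifted all log2 ratios by 0.02.

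In the 4 columns the log2 ratio took the other sign for Coq8b (-0.0036), Gmcl1 (-0.13), Cdh20 (-0.16), Kyat3 (-0.44), Slf1 (0.10), Grn (0.34), Nlrp14 (0.087), Mcm4 (0.056), Nbn (0.17), Ddx10 (1.15) and Hspa4 (0.23), and within row B for Usp17lb (2.14). The nearest egg shared the column for 14 of 14 paired eggs under each of 4 measures. Genes at 0 counts in an egg cannot be told from levels under 2.65 to 16.8 CPM, by egg. No paired analysis was possible by the replicate numbers in the labels, because each activated egg has its own replicate number. Eggs could be paired by column in the 4 columns with both growth numbers. Those pairs were compared by size with no paired test, since eggs were not used as replicates.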
